A study of Mus musculus with 70 samples.

Results

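Ribosomal protein (RP) genes encode the proteins of the cytosolic ribosome. The members were chosen by symbol alone, as the autosomal protein-coding genes of the mouse annotation named Rpl or Rps with a number, with Rpsa and the stalk genes Rplp0, Rplp1 and Rplp2. The rule found 79 of 20807 genes, of which 31 encode proteins of the small subunit and 48 proteins of the large subunit, and 6 of the 79 are paralogs with names such as Rpl3l. Their annotated transcription start sites (TSSs) fell in 91 of the 35186 10-kb promoter bins, with 65 genes in 1 bin and 14 in 2, on 18 chromosomes.

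Promoter contacts were mapped by H3K4me3 PLAC-seq, which combines proximity ligation with immunoprecipitation of a histone mark of promoters, in fetal tissues of C57BL/6N mice. At E12.5 the tissues were liver (LV), limb (LM), craniofacial prominence (CF) and 4 of the neural axis, namely forebrain (FB), midbrain (MB), hindbrain (HB) and neural tube (NT). FB was also taken at P0 and on each day from E13.5 to E16.5, and no group had a genetic change or drug treatment. Each of these 12 tissue-stages had 2 biological replicates, so a p-value measures the spread between these libraries. CTCF ChIP-seq was made on the same tissue-stages, where the 2 libraries of LV at E12.5 and those of FB at E14.5 are labelled as technical replicates and FB at P0 has 1 library.

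Ribosomal proteins of the small subunit decode the messenger RNA, and those of the large subunit surround the site of peptide bond formation. Every growing cell needs nearly all of them in equal amounts, and many of their messenger RNAs begin with a run of pyrimidines through which growth signals set their translation. Several of the genes carry small nucleolar RNAs (snoRNAs) in their introns, and inherited loss of a single copy of some of them causes Diamond-Blackfan anaemia, a failure of red cell production. Liver is the main site of red cell production in the mouse fetus at E12.5.

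The values are numbers of called interactions. An interaction is a pair of 10-kb bins, 20 kb to 1 Mb apart, whose read pairs passed a false discovery rate (FDR) of 1% and were at least 2 times the number expected. The pooled sets held 21945 interactions in LV to 79677 in FB at P0 (median 60198.5), and the 24 replicate sets 11396 to 63868. A pair of bins was tested only where an end held an H3K4me3 peak, so a gene listed at 0 can have contacts that were not called. In whole tissue, fewer cells of a type with a contact and a weaker contact in each cell cannot be told apart. Of the marker genes of each tissue, 5 of 6 for FB, 4 of 5 for CF, 3 of 5 for LM, 2 of 4 for NT, 1 of 4 for MB and 0 of 4 for HB had their highest scaled number in the tissue of that name. In LV 4 of 7 did, with 1 to 3 interactions each, and the hepatocyte genes Alb and Serpina1a were at 0 interactions. Before scaling, Afp, Apoa2 and Klf1 of these 4 had more interactions in another tissue-stage than in LV.

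The sequences below show what lies at the start of RP genes that the results turn on. They run 5′ to 3′ on the strand of the gene from 60 bases before the RefSeq start (GRCm38.p6), and capitals mark a run of at least 6 pyrimidines that lies within 5 bases of the start. Rpl34 and Rpl38 were among the genes with few or no interactions in LV, Rpl6, Rpl27a and Rpl13 among those with the most there, and Rpl28 was shown because it had contacts in every tissue-stage.
Rpl34, chr3:130730379-130730458, minus strand: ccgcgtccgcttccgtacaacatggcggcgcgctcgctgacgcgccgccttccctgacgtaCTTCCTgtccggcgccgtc
Rpl38, chr11:114668520-114668599, plus strand: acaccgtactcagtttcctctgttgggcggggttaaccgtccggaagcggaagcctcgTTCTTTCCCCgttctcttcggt
Rpl6, chr5:121204441-121204520, plus strand: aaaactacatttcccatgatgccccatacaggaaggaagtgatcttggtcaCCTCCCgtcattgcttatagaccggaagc
Rpl27a, chr7:109519135-109519214, plus strand: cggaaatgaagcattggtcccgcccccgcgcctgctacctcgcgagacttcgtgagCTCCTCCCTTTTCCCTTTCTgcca
Rpl13, chr8:123102290-123102369, plus strand: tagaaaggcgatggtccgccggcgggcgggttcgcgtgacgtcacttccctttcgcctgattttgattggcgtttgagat
Rpl28, chr7:4792905-4792984, plus strand: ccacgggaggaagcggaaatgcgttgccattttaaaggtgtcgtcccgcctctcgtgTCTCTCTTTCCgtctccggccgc

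RefSeq promoter windows were found for 59 of the 79 genes. A pyrimidine run at the start was present in 30 of the 59 (50.8%), against 20.8% of 15687 promoters in all. The ETS letters CCGGAAG were present on either strand, from 250 bases before to 50 after the start, in 40.7% of RP windows and 12.6% of all. The YY1 letters AAGATGG were found in 15.3% against 6.42%, the SP1 letters GGGCGG in 59.3% against 48.8%, and TATAAA in 6.78% against 12.9%. Other gene lists had like shares, with YY1 letters in 18.8% of mitochondrial ribosomal and of proteasome windows, SP1 letters in 71.4% for translation factors and 78.3% for aminoacyl-tRNA synthetases, and ETS letters in 28.6% to 34.8% over the 4 lists. The pyrimidine run was present in 14.3% to 37.5% of windows in these lists. No test was made of these shares, and a match describes letters, not a bound site. The windows of the LV-low Rpl34 and the LV-high Rpl6 both held a run of 6 pyrimidines, and ETS letters were present in those of Rpl38, Rpl6 and Rpl27a and absent from those of Rpl34, Rpl13 and Rpl28.

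RP promoter bins had contacts more often than promoter bins at large in every tissue-stage. In the 12 pooled sets, 70.3% (LV) to 85.7% (NT) of the 91 bins had at least 1 interaction (mean 78.2% ± 4.37, SD, n = 12), against 22.6% to 44.7% of all promoter bins (36.7% ± 5.45). The difference was 41.5 percentage points ± 2.70 and the RP share was the higher in 12 of 12 pooled sets and in 24 of 24 replicate sets, where it ran from 34.1% to 81.3% against 10.9% to 37.8%. LV was the lowest tissue-stage for both, and without LV the means were 78.9% and 38.0%. Other lists of genes that most cells express lay between, with means of 57.9% for mitochondrial ribosomal proteins, 54.7% for proteasome subunits, 54.1% for translation factors and 41.9% for aminoacyl-tRNA synthetases. How many of all promoter bins carried H3K4me3 was not analysed here, and its part in the difference was not tested.

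**Figure D1:**
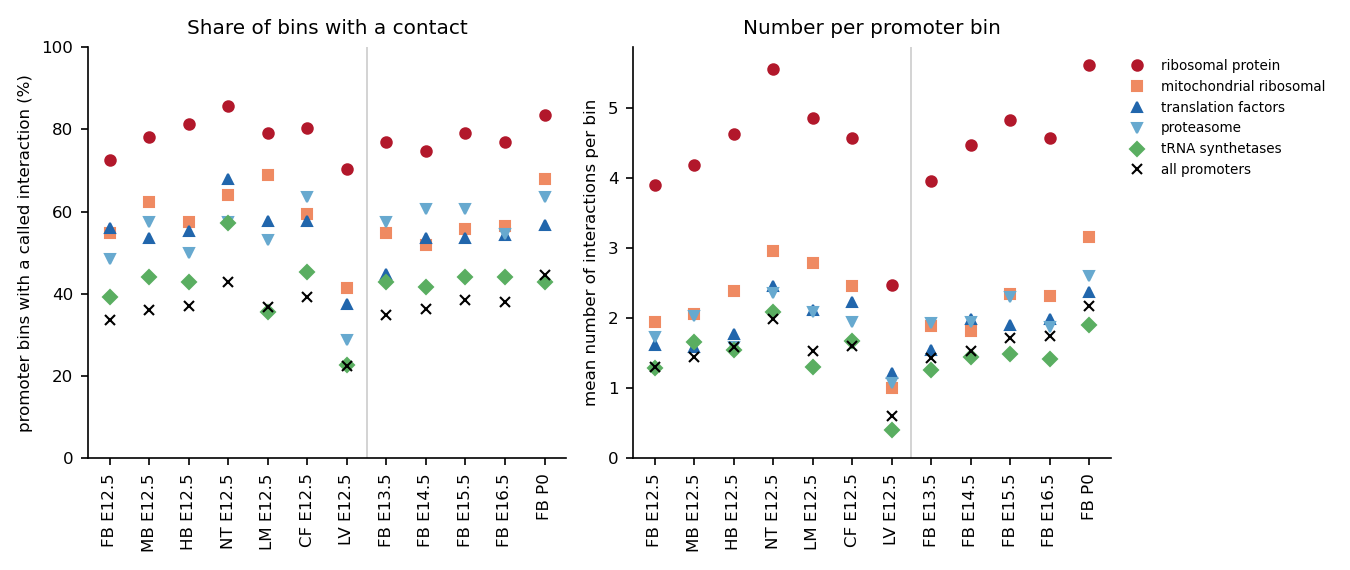
The left panel plots the percent of promoter bins with at least 1 called interaction and the right panel the mean number of interactions per bin, for 12 pooled tissue-stages (E12.5 tissues left of the line, later FB right of it) and 6 gene sets. The RP bins, at 70.3% to 85.7%, lie above the other sets in every tissue-stage of the left panel, and LV is their lowest point in both panels.

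The share was as high in RP bins without a neighbouring gene. Of the RP bins, 37 of 91 (40.7%) also held the TSS of another gene, against 8.17% of all promoter bins. Among bins with a single gene the share with contacts was 79.0% ± 4.95 for RP bins and 35.1% ± 5.38 for all, and among bins with several genes it was 77.0% ± 5.34 against 55.5% ± 6.31. RP bins also lay among more promoters, with a median of 60 other promoter bins within 1 Mb against 45 for all.

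The number of interactions per RP bin was 4.46 ± 0.822 over all bins, against 1.56 ± 0.383 for all promoters. Among bins with at least 1 interaction it was 5.67 ± 0.820 against 4.17 ± 0.542, the higher in 12 of 12 pooled sets. In the replicate sets, which hold fewer calls, the RP number in bins with a contact was the higher in only 9 of 24. The RP interactions were therefore more widespread over bins in both kinds of set, while their number per contacting bin was above that of all promoters only in the pooled sets. The RP contacts were also weaker relative to expectation, with a median observed/expected ratio of 3.06 ± 0.196 against 3.39 ± 0.151, the lower in 12 of 12. This was not particular to RP genes. Translation factors (2.96), proteasome subunits (3.06) and aminoacyl-tRNA synthetases (3.09) were also lower in 12 of 12, and mitochondrial ribosomal proteins (3.34) in 9. In single-gene bins the ratio was 3.25 for RP against 3.40, and in bins with several genes 2.76 against 3.10. The median distance of RP contacts was 265 kb ± 38.0 against 274 kb ± 31.2, a difference of less than 1 bin that was lower in 8 and higher in 2 of 12 pooled sets. In the replicate sets the RP distance was lower in 23 of 24, with means of 205 and 256 kb.

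By gene, 77 of the 79 had an interaction in at least 1 pooled set (97.5%, against 76.1% of all genes), and 40 had interactions in all 12 (50.6%, against 18.1%). The median gene had 4 interactions per tissue-stage, against 0.917 for all genes. The 2 genes with none were the paralogs Rpl10l and Rpl39l, both expressed mainly in testis. Of the large subunit genes 29 of 48 had contacts in all 12 tissue-stages, and of the small subunit genes 11 of 31, a difference that was not tested. The 19 Diamond-Blackfan anaemia genes ranged from Rps24 with 23.5 interactions per tissue-stage to Rps29 with 0.0833 (median 3.42). The 28 members with a snoRNA in the gene had a median of 3.67 and the 51 without 4.17.

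**Figure D2:**
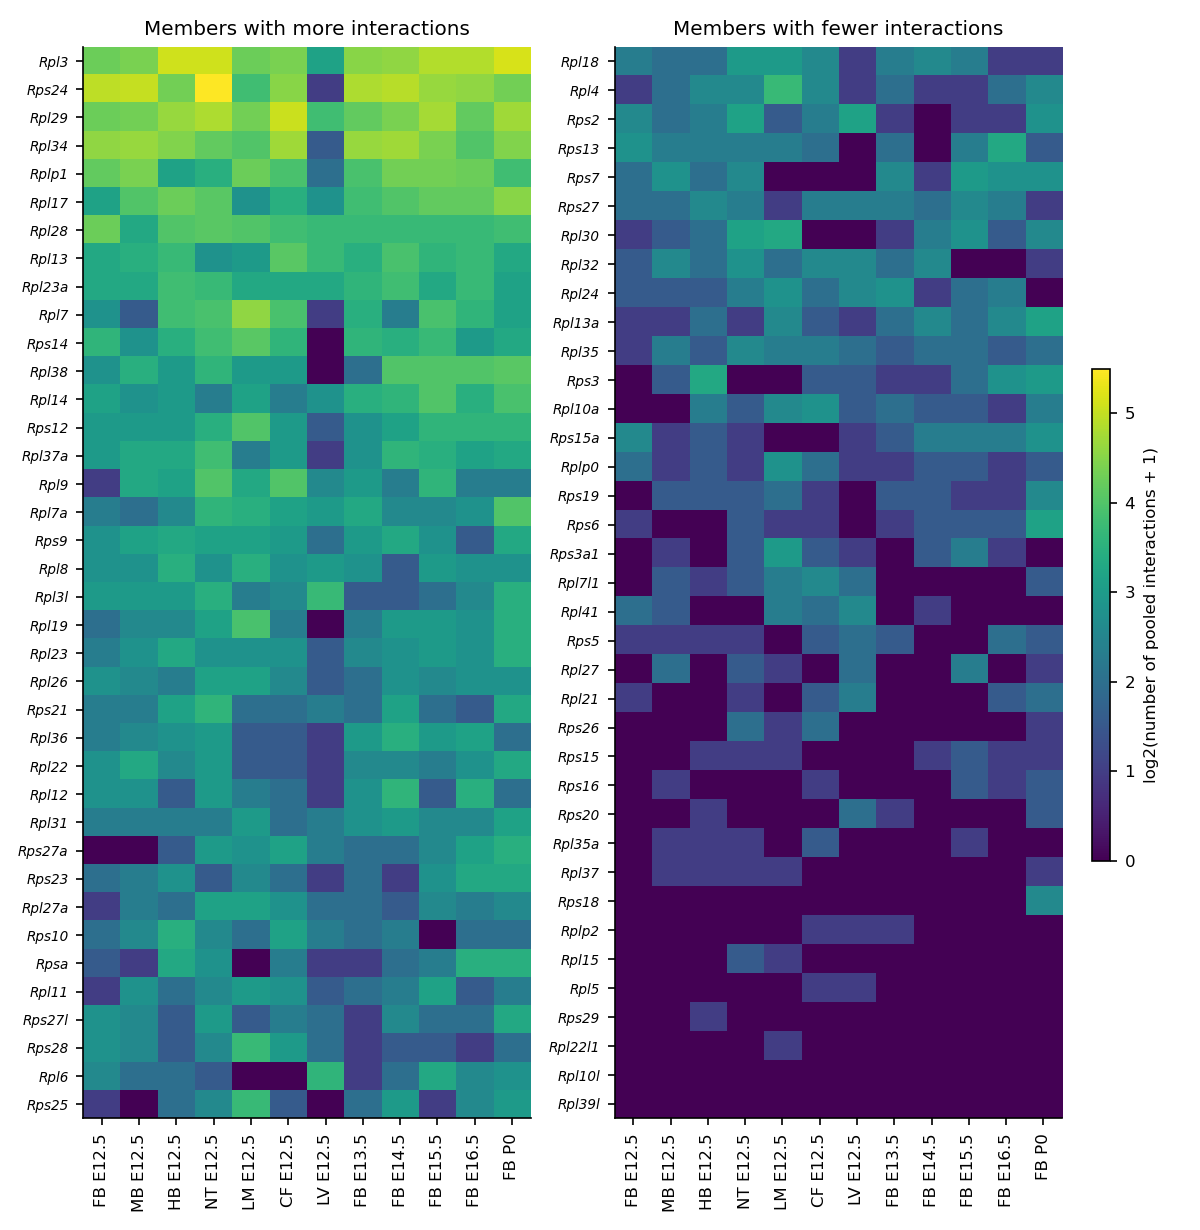
Each row is an RP gene, ordered by its total, and each column a pooled tissue-stage, and the colour is log2 of the number of interactions plus 1. Rpl3, Rps24, Rpl29 and Rpl34 head the list, Rps24, Rpl34, Rps14 and Rpl38 turn dark in LV, and Rpl10l and Rpl39l are at 0 throughout.

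The 10 genes with the most interactions were mostly of the large subunit. Rpl3, whose protein reaches toward the catalytic centre of the ribosome and whose bins also hold a TSS of Syngr1, had 8 interactions in LV to 35 in FB at P0, with a median of 22.5. Rps24 of the small subunit, which shares a bin with Polr3a, had 1 (LV) to 44 (NT), with a median of 23.5. Rpl29, which shares a bin with Acy1, had 13 (LV) to 32 (CF), with a median of 19.5. These 3 genes differed in how steady they were, since Rpl29 kept 13 in LV where Rps24 had 1. Rpl34 of the large subunit had 2 (LV) to 25 (CF and FB at E14.5), with a median of 21. Rplp1, an acidic protein of the stalk that draws elongation factors to the ribosome, had 3 (LV) to 20 (MB), with a median of 15.5. Before scaling, Rpl28 varied less, with 9 to 18 interactions and 12 in LV. So did Rpl23a (with Rab34), with 8 to 13 and 9 in LV. After scaling, this held only against Rpl34 and Rps24. The ratio of the highest to the lowest scaled number plus 1 was 3.23 for Rpl28 and 3.65 for Rpl23a. It was 1.63 for Rpl3, 2.22 for Rpl29, 2.52 for Rplp1, 4.32 for Rpl34 and 10.2 for Rps24. Rpl17 and Rpl13 were also among the 10, with means of 13.6 and 10.7 interactions per tissue-stage.

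Within the stalk the levels were far apart. Rplp1 had a mean of 14.4 interactions per tissue-stage, Rplp0 (with Pxn), the scaffold of the stalk, 2.08, and Rplp2 (with Pidd1 and Pnpla2) 0.25. Rplp2 had 1 interaction in each of CF, LV and FB at E13.5 and 0 in the other tissue-stages. Genes whose products are joined in a complex thus did not share a contact number.

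The small subunit genes spanned a range of means from 0.0833 to 23.5, and the paralogs one from 0 to 6.17. Rpl3l, the muscle paralog of Rpl3, had a mean of 6.17 interactions per tissue-stage and shares a bin with Rps2, so their numbers are in part the same. Rps27l, a paralog of Rps27, had 4.17, Rpl7l1 had 1.58 and Rpl22l1 had 0.0833. Among the small subunit genes, Rps29 had 1 interaction in HB and 0 elsewhere, and Rps18 (with B3galt4 and Vps52) had 5 in FB at P0 and 0 elsewhere.

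None of the 9 genes listed for a developmental phenotype in the mouse was among the 10 of 79 members with the most contacts. With so few genes this cannot be read as a difference. Of the 9, only Rpl27a had contacts in all 12 tissue-stages (11.1%), against 50.6% of RP genes and 18.1% of all genes, which was not tested. The means of the 9 ran from 0.583 for Rps20 to 9.67 for Rps14 (with Ndst1). Rps19, the gene most often mutated in Diamond-Blackfan anaemia, had 0 to 5 interactions. Rpl38, whose loss gives the Tail short mouse with skeletal defects, had 0 in LV, 3 in FB at E13.5 and 16 in FB at P0.

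Some RP genes had their contacts in steep contrast between tissue-stages. By the ratio of the highest to the lowest scaled number plus 1, the 5 most uneven genes were Rpl6 (31.2, highest in LV), Rps2 (22.9, highest in LV), Rps14 (18.2, highest in LM), Rpl38 (16.2, highest in FB at E14.5) and Rpl19 (16.0, highest in LM, with Cacnb1). Rps14, Rpl38 and Rpl19 had 0 pooled interactions in LV. These 5 values describe single pooled sets and carry no test.

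The interactions of many RP genes lay to a single side of the promoter, as they did for promoters at large. Of 60 RP genes with at least 20 interactions over the 12 pooled sets, 32 had 90% or more on the same side, with a median of 90.3% on the larger side, against 90.7% over 8208 genes in all. Rps24 had 281 of 282 downstream, Rplp1 170 of 173 downstream, Rpl34 231 of 232 upstream and Rpl29 253 of 257 upstream. Rpl3 was less one-sided, with 178 of 286 downstream.

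Some pairs of an RP gene and a partner promoter were called in the 11 tissue-stages other than LV. The 4 pairs described here were chosen after their values were seen, and other partners had the same pattern, such as Npcd and Tnrc6b for Rpl3. Rpl34 contacted the promoter bin of Lef1, a transcription factor of Wnt signalling whose 5′ end lies 380 kb away, in 11 tissue-stages and in 20 of 24 replicate libraries, with a median observed/expected ratio of 3.63. Rps24 contacted Zmiz1, a transcriptional coactivator, over 960 to 970 kb in 11 tissue-stages and 22 libraries, with a median ratio of 5.22. Rplp1 contacted Tle3, a corepressor of the Groucho family, over 510 to 540 kb in 11 tissue-stages and 17 libraries. Rps12, a small subunit gene, contacted Eya4, a transcriptional cofactor, over 430 to 670 kb in 11 tissue-stages and 13 libraries. None of these 4 pairs was called in LV, in the pooled set or in either of the 2 replicate sets. Interactions in LV were shorter at large. The median distance of all promoter interactions was 170 and 160 kb in the LV replicate sets and 230 to 290 kb in the others. The 4 pairs span 380 to 970 kb, and the part of distance in their absence from LV was not tested.

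The partner promoters themselves had few interactions in LV. Lef1 had 0 pooled interactions in LV and 16 to 35 in the other tissue-stages, and Eya4 had 0 and 3 to 35. Zmiz1 had 10 in LV and 66 to 96 elsewhere, and Tle3 9 and 56 to 86. For each of the 4 pairs, the partner's number in LV was thus below its range in the other tissue-stages, and which end carried the H3K4me3 peak was not analysed here. Other pairs were called in LV too. Rpl3 and Cbx7, a Polycomb subunit, were joined in 12 tissue-stages and 23 libraries, over 110 to 160 kb. Rpl13 and Ankrd11, a chromatin regulator, were joined in 12 tissue-stages and 22 libraries, over 190 to 210 kb.

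The contacts that recurred in all 12 tissue-stages were few. Of 1585 distinct RP interactions, 283 (17.9%, 95% Wilson interval 16.0% to 19.8%, counting error only) were called in 6 or more tissue-stages, against 17.0% of all promoter interactions, and 30 (1.89%) in all 12, against 1.42%. With 5′ end bins alone, the first of these shares was lower for RP genes (16.8% against 17.8%). Rpl29 had 6 of the 30, Rpl23a 4 and Rpl3 3. The strongest was that of Rpl34 with a bin 500 kb away without a TSS, at a mean observed/expected ratio of 7.41 over the 12 pooled sets, with 3.57 as the lowest and 11.4 as the highest. A neighbouring pair of bins, 520 kb apart, had 7.29. These were the only interactions of Rpl34 in the pooled LV set, and neither LV replicate set held any. Others among the 10 strongest were those of Rps12 with a bin 690 kb away (6.51) and of Rpl29 with 3 bins of the centriole gene Poc1a 120 to 140 kb away (4.93 to 5.37). The contact of Rpl3 over 140 kb (4.72) was also among them, as was that of Rpl7a, which shares its bin with Med22, Surf1 and Surf2, over 270 kb (4.16).

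Contacts between RP genes were called for 2 pairs. There were 8 pairs of members within reach, from 20 kb to 1 Mb apart, and the share of such pairs with a contact among promoters at large was not computed. Rpsa, which encodes a small subunit protein also known as a laminin receptor precursor, was joined to Rpl14 over 440 kb in 4 tissue-stages, LV among them, and over 450 kb in 2. Rpl23 was joined to Rpl19 over 250 kb in 2 tissue-stages and over 240 kb in 1.

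CTCF, the zinc-finger protein at many chromatin loop ends, was present in more RP bins than promoter bins at large. A CTCF peak with a motif lay in 64.3% ± 3.91 (SD, n = 12) of RP bins, from 60.4% to 71.4%, against 33.5% ± 3.07 of all promoter bins, and the RP share was the higher in 12 of 12 tissue-stages. In bins with a single gene it was 60.03% against 31.9%. The peaks in RP bins were also taller, with median fold enrichments over input of 12.8 to 20.8 by tissue-stage against 8.40 to 13.95. By gene, 49 of 79 had CTCF in all 12 tissue-stages and 11 in none. Rplp1 and Rps12, with means of 14.4 and 8.5 interactions, were among the 11 with none, and Rpl34 had a peak in 1 tissue-stage only.

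The CTCF sites of 6 RP genes with contacts in many tissue-stages, or with steep differences, are printed 5′ to 3′ on the strand of the motif (GRCm38), with bases that match the consensus of the motif in capitals. They are sites in the 10-kb bins of the promoters, 8 (Rps24) to 7448 bases (Rpl29) from the nearest TSS, and no 2 of them are identical.
Rpl3, chr15:80091270-80091288, minus strand: ctcCCgCCAGGGGGCGtcc
Rps24, chr14:24487124-24487142, minus strand: gaGCCgCtAGatGGCGaTc
Rpl29, chr9:106421997-106422015, minus strand: TGtCCACaAGGGGGCagTA
Rps2, chr17:24724494-24724512, minus strand: gGaCCACaAGGGGGtGCTc
Rpl38, chr11:114668081-114668099, minus strand: aGGCCAgaAGaGGGCatcg
Rpl34, chr3:130730086-130730104, plus strand: cGaCggCCAGGGtGCGCgc

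Of the 19 bases, 11 to 15 matched the consensus in these sites. The site of Rpl3, with 12, had a median fold enrichment of 37.0 over the 12 tissue-stages, that of Rps24, with 11 and 8 bases from a TSS, 32.0, and that of Rpl38, with 11 and 434 bases from a TSS, 34.8. The site of Rpl34, with 12, was in a peak of 3.04 in a single tissue-stage. The peaks of Rps24 and Rpl38 were present in LV, where their contacts were few or not called.

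RP promoter bins had contacts with and without CTCF. The share with contacts was 80.9% ± 5.07 for RP bins with CTCF and 74.0% ± 7.90 for those without, while for all promoter bins it was 57.7% ± 6.73 and 26.1% ± 4.30. The RP bins without CTCF thus stood 47.9 percentage points ± 6.33 above all bins without CTCF, the higher in 12 of 12. In FB at E14.5, E15.5 and E16.5, the share without CTCF was at or above the share with it. Far ends of RP contacts held CTCF in 54.2% ± 3.73 of cases, against 32.4% ± 2.40 in the mirror bin, which lies as far from the promoter on its opposite side. For all promoters these values were 47.4% ± 3.23 and 26.6% ± 2.00, so CTCF was more frequent at far ends than at mirror bins in both sets. Far ends were promoter bins in 44.6% ± 2.93 of RP contacts, against 35.4% ± 2.58 at the mirror bin, and in 35.7% ± 2.00 against 26.4% ± 1.57 for all promoters. Where the RP bin held a CTCF motif, 73.8% ± 8.08 of contacts ran in the direction the motif faces, against 68.9% ± 3.01 for all, the higher in 10 of 12.

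**Figure D3:**
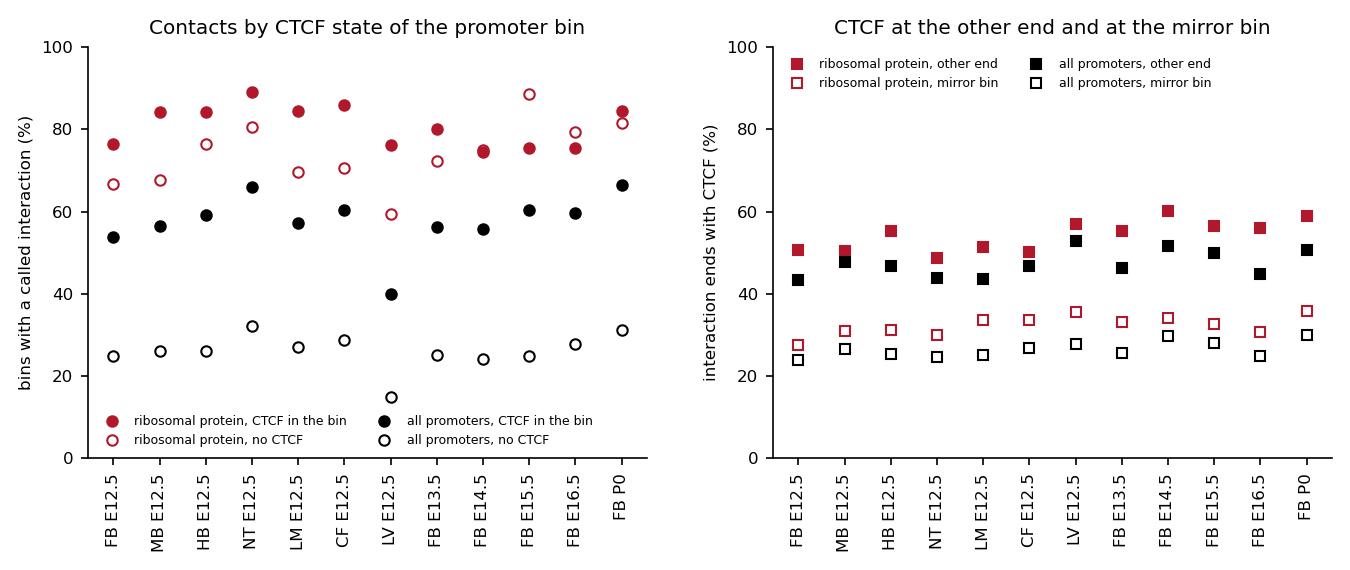
The left panel plots the percent of bins with a called interaction in 12 pooled tissue-stages, by whether the bin held a CTCF peak with a motif, and the right panel the percent of far ends, and of mirror bins at the same distance, with CTCF. Open red circles (RP bins without CTCF, 59.4% to 88.5%) lie far above open black circles (all bins without CTCF), and filled squares lie above open squares for both sets.

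Differences of single genes were tested with limma over all genes, on log2 of the number per replicate library, scaled to the median library total, plus 1. Genes with a mean scaled number of at least 1 entered, which 51 of the 79 members did over the 24 libraries. Over all 12 tissue-stages, 25 of these 51 (49.0%) passed an adjusted p of 0.05, against 60.5% of 5501 genes. RP genes thus were not called more often than genes at large. The lowest adjusted p was that of Rpl34 (6.28e-09), followed by Rps24 (1.97e-05), the paralog Rpl7l1 (8.62e-05), Rplp1 (0.000102), Rps2 (0.000489) and Rps10 (0.00065). Rpl34, Rpl7l1, Rplp1, Rps2 and Rps10 kept their calls under all alternatives that gave a value, and Rps24 lost its call when only the bin of its 5′ end was counted (adjusted p = 0.319).

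Liver differed from the other 6 tissues at E12.5 in both directions. Of 44 members tested, 26 were called (59.1%), against 51.8% of 4725 genes, with 18 higher in LV (23.7% of all genes) and 8 lower (28.1%). Some of the 18 entered the test only through their LV numbers, as set out below. After scaling, the median member was 0.66 higher in LV on the log2 scale and the median gene fell by 0.07. Without scaling these medians were 0.09 and -0.58, with 6 members higher and 9 lower, and with TMM scaling 0.18 and -0.47, with 8 and 9. Of all genes, 405 of 4925 were higher and 1545 lower without scaling, and 521 and 1497 of 4722 with TMM. Each of these fits tested 45 members. The members stood above the median of all genes by 0.72, 0.67 and 0.66 in these 3 fits, while the split into higher and lower calls rested on the scaling. The medians of other lists were 0.63 for mitochondrial ribosomal proteins, 0.66 for translation factors and 0.92 for proteasome subunits, so a higher median was not particular to RP genes, while that of the 9 aminoacyl-tRNA synthetase genes tested was -0.69.

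Of the RP genes lower in LV, Rpl34 had 0 and 0 interactions in the 2 LV libraries and 5 to 19 (median 10) in the other 12. Rps24 had 0 and 0 against 1 to 13 (median 6). The groups did not overlap for either gene, with adjusted p = 1.12e-07 for Rpl34 and 2.41e-05 for Rps24 in the limma test. Rplp1 had 0 and 0 against 0 to 10 (median 4, adjusted p = 0.000809), with an overlap through an NT library at 0. Since these genes were listed at 0 in LV, no fold is given, and the size of their plotted log2 differences depends on the 1 that was added. Rpl22 (0 and 0 against 0 to 5) and Rpl19 (0 and 0 against 0 to 6) were also lower in LV. So were Rps14, Rps12 and Rpl7, which had 0 or 1 in LV. In the pooled sets after scaling, LV was lowest for Rpl34, Rps24, Rpl19, Rps14 and Rps12. The lowest pooled set was HB for Rplp1, CF for Rpl22 and MB for Rpl7, so these genes were not lowest in LV there. Interactions in LV were also shorter at large. In FB at E12.5 the median distances of Rpl34, Rps24 and Rplp1 were 490, 630 and 850 kb. Those of Rpl22 and Rpl19 were 145 and 130 kb. The part of distance in these differences was not tested.

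Genes entered this test by their mean over all E12.5 libraries, LV included. Rpl6, Rps2, Rpl41, Rpl9 and Rpl14 were low elsewhere and passed the filter only through their LV numbers. They are among the 18 called higher. For these genes, the adjusted p and any gap between libraries rest on the numbers that let them in. They describe the values and are no support for a difference. Of the genes higher in LV, Rpl6, a large subunit gene with its TSS bin to itself, had 11 and 10 interactions in LV and 0 to 4 (median 0) in the other 12 libraries. Its log2 difference was 3.63 ± 0.45 (SE, adjusted p = 2.63e-05). Rps2, which shares bins with Rpl3l, Ndufb10 and Rnf151, had 7 and 7 against 0 to 3 (3.03 ± 0.44, adjusted p = 0.000101). Neither gene's libraries overlapped between LV and the rest. All 11 pooled LV interactions of Rpl6 ran downstream over 60 to 190 kb, and 7 of 8 of Rps2 ran upstream, where Rps2 contacts of the other tissue-stages lay downstream in 31 of 35 cases. Rpl13 had 12 and 11 in LV against 1 to 9 (median 4.5), with a log2 difference of 1.93 ± 0.32 (adjusted p = 0.000313). Rpl27a, mutated in the Sooty foot ataxia mouse, had 6 and 5 against 0 to 4 (2.44 ± 0.44, adjusted p = 0.000511). Rps10, a Diamond-Blackfan anaemia gene, had 5 and 7 against 0 to 3 (2.29 ± 0.41, adjusted p = 0.000519). Rpl41 (with Zc3h10), which encodes the shortest ribosomal protein, had 6 and 2 against 0 to 2 (2.44 ± 0.31, adjusted p = 3.35e-05), so its groups met at 2 before scaling. These 6 genes were higher in LV under all alternatives that gave a value, but all of these used the replicate sets. Rpl41 gave none without scaling, where its mean number was below 1, while the others were called higher there. In the pooled sets, before scaling, only Rpl6 (11 in LV against 0 to 5 in the other 6 tissues at E12.5) and Rpl41 (5 against 0 to 4) were above the other tissues. Rps2 had 8 against 2 to 8, Rpl13 12 against 6 to 16, and Rps10 4 against 3 to 10. Rpl27a had 3 in the pooled LV set, below the 8 in each of NT and LM and the 6 in CF, and after scaling its highest pooled set was LM rather than LV. Higher numbers in LV were also called for genes that included Rpl7l1, Rpl9, Rpl3l, Rpl24, Rpl14, Rpl8, Rpl28, Rpl23a, Rpl10a, Rpl18 and Rpl35 (0.83 to 2.18). Of the 18 members called higher, 6 were called without scaling and 8 with TMM, and Rpl28, Rpl24, Rpl23a and Rpl14 were among those that lost the call in both fits. Rpl3, with 5 and 7 in LV against 3 to 26, was not called (-0.03 ± 0.24, adjusted p = 0.92). Without LV replicate 2, which had 11396 interactions, the members called were 12, with 7 higher and 5 lower.

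**Figure D4:**
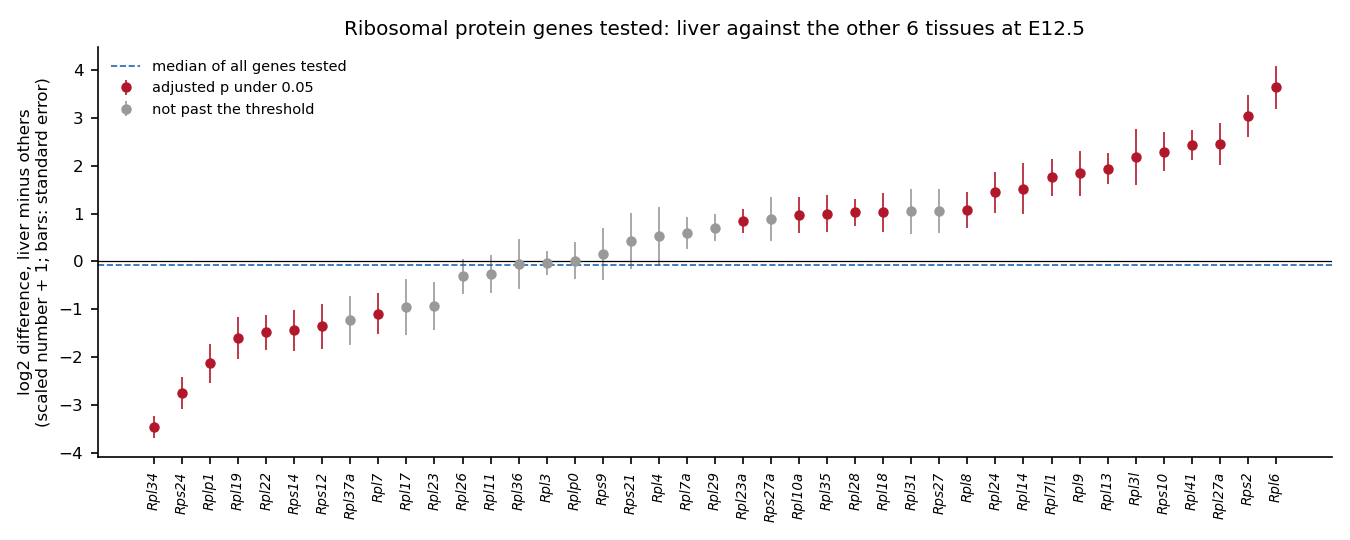
Points are the log2 differences, LV minus the mean of the other 6 tissues, of members tested, on the scale of the scaled number plus 1, with standard errors as bars. Red points passed the threshold, from Rpl34 at -3.45 to Rpl6 at 3.63, and the dashed line is the median of all genes tested at -0.07. For Rpl34 and other genes at 0 in both LV libraries, the size depends on the 1 that was added.

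**Figure D5:**
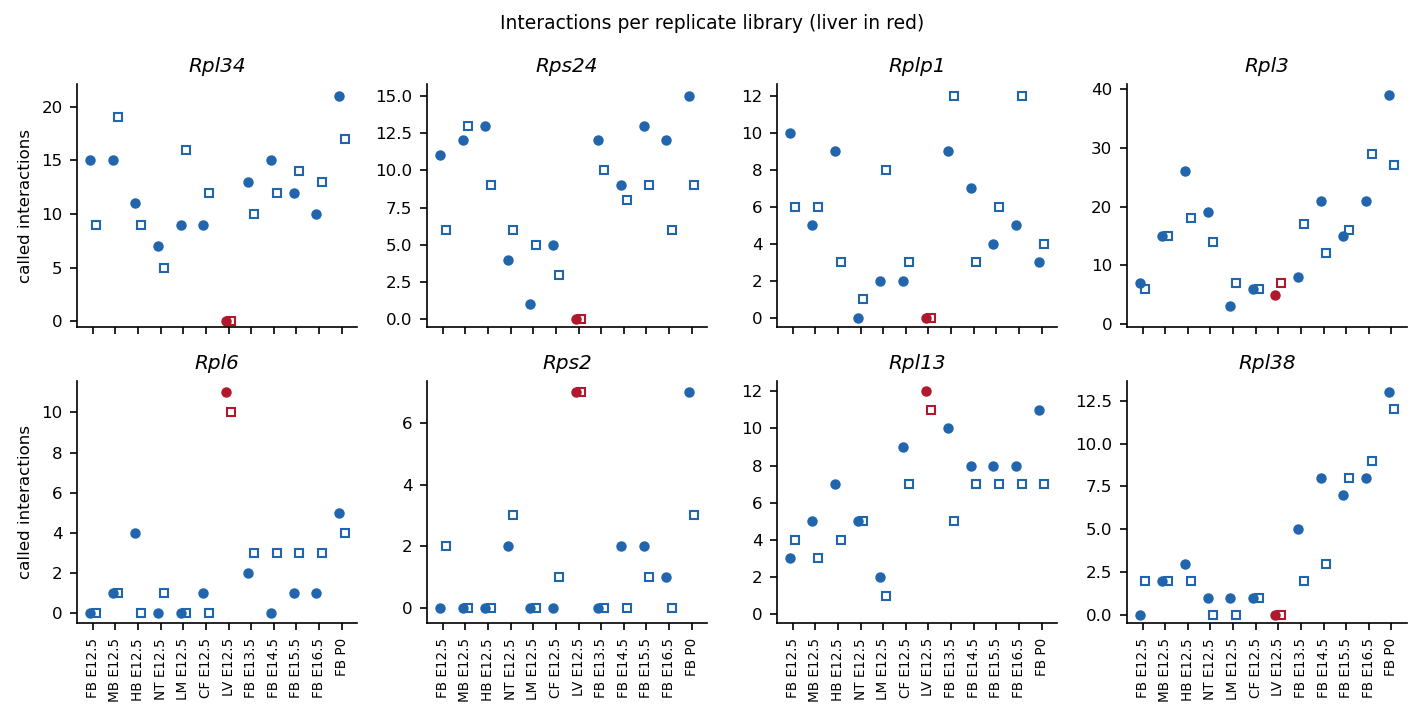
Called interactions of 8 RP genes in each of the 24 replicate libraries, with filled circles for replicate 1, open squares for replicate 2, and LV in red. Rpl34, Rps24 and Rplp1 are at 0 in both LV libraries, Rpl6, Rps2 and Rpl13 are high there, and Rpl38 is highest in FB at P0.

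Neural tissues (FB, MB, HB and NT) were compared with LM and CF at E12.5. Of the 44 members 12 were called (27.3%), against 28.4% of 4725 genes, with 4 higher in neural tissues (15.7% of all genes) and 8 lower (12.8%). DESeq2 called 0 of the 44 (4 at an unadjusted p under 0.05) and 496 of the 4725 genes, and 2 of the 12 calls held under all alternatives that gave an adjusted p. Without scaling the split was 5 and 3 and with TMM 5 and 4. Over all genes it was 1247 and 307 without scaling and 1052 and 416 with TMM. Rpl22, a large subunit gene, had 2 to 5 interactions in the 8 neural libraries and 0 to 2 in the 4 others (log2 difference 1.20 ± 0.29, adjusted p = 0.00676), so the groups met at 2. Its call held under all alternatives that gave an adjusted p, which DESeq2 did not for this gene. Rpl3 (6 to 26 against 3 to 7) and Rps24 (4 to 13 against 1 to 5) were also higher in neural tissues, and Rps24 kept the call under 12 of 22 alternatives. Rpl27a had 0 to 3 interactions (median 0) in neural libraries and 1 to 4 (median 2) in LM and CF, and was lower (-1.44 ± 0.35, adjusted p = 0.00698). Rpl7l1, Rpl7 (with Rdh10), Rpl10a, Rplp0, Rps12, Rpl18 and Rps27a (with Clhc1), whose protein is made as a fusion with ubiquitin, were also lower, by 0.93 to 1.27 on the log2 scale. Without LM replicate 1 the members called were 5 and without CF replicate 2 they were 6.

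In the forebrain, E16.5 and P0 were compared with E12.5 and E13.5. Of 47 members 9 were called (19.1%), against 22.4% of 5832 genes, with 3 higher late (14.3% of all genes) and 6 lower (8.16%). Without scaling 19 were higher and 0 lower, and with TMM 3 and 1. Over all genes, 2757 of 6307 were higher and 54 lower without scaling, where 52 members were tested. With TMM, 955 of 5776 were higher and 350 lower. The late libraries held 35291 to 63868 interactions and the early ones 16075 to 30876. Rpl38 had 8, 9, 13 and 12 interactions late and 0, 2, 5 and 2 early, so the groups did not overlap (1.43 ± 0.42, adjusted p = 0.0263). The numbers at E14.5 and E15.5 lay between or among these, at 8 and 3 and at 7 and 8. Rpl38 contacted Sdk2, a cell adhesion gene, over 600 to 850 kb in 9 tissue-stages and 16 libraries. Rpsa had 4, 4, 10 and 4 late against 0, 0, 0 and 3 early (1.70 ± 0.54, adjusted p = 0.0372), and Rpl3 21, 29, 39 and 27 against 7, 6, 8 and 17 (0.69 ± 0.23, adjusted p = 0.0439). Rplp1 was lower late, with 5, 12, 3 and 4 against 10, 6, 9 and 12 (-1.47 ± 0.30, adjusted p = 0.00429), and was lower though not called without scaling. Rpl23a, Rps24, Rpl37a and Rpl34 were called lower after scaling, while their differences without scaling were above 0 (0.06, 0.07, 0.06 and 0.33). No call of this comparison held under all alternatives. Leaving out 1 library moved the 9 calls to between 1 (without FB P0 replicate 1) and 8, and to 5 or fewer without FB E12.5 replicate 1, either replicate of FB E13.5 or E16.5, or FB P0 replicate 2 (4, 4, 5, 3, 3 and 2).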

How the data were processed

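H3K4me3 PLAC-seq reads were aligned to mm10 by the authors, who ran MAPS on every replicate, and again on both replicates of a tissue-stage after pooling and downsampling. The deposited calls hold the count of read pairs, the fitted expected count as the signal of the model, and its FDR, a q-value. For CTCF peaks, the fold enrichment against input DNA was computed by the authors with MACS2, and FB at P0 has 1 CTCF library. Genes and TSSs came from GENCODE M21 (GRCm38, the assembly called mm10). A CTCF motif of 19 bp was estimated from 5000 peaks, with a site threshold of 0.0001. Python 3.11.15 (numpy 2.4.6, pandas 2.3.3, scipy 1.17.1, pysam 0.24.0, matplotlib 3.10.9) and R 4.3.3 (limma 3.58.1) were used, with edgeR 4.0.16 and DESeq2 1.42.0 as alternatives on the numbers of interactions. The limma trend option and Benjamini-Hochberg adjustment over all genes tested were used for 4 comparisons. The steps were tested on simulated data.

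Named genes were the members called (up to 20 per comparison), the 10 with the most interactions, those with none, the 5 most uneven, the stalk genes, Rpsa, the 9 phenotype genes, member pairs that contact each other and the 10 strongest interactions found in all 12 tissue-stages. Members and lists were chosen with earlier results of these data known. Same-numbered replicates of different tissue-stages did not deviate together (r from -0.144 to 0.0891 over 66 pairs), so no pairing entered the tests. A total of interactions, 11396 to 63868 per library, stands for depth. Some members are counted but not reported here by name, in the text or the plots. Input libraries, contact maps and H3K4me3 peaks were not analysed here.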

Additional observations from a re-analysis of the deposited data

How the results depend on the processing

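The calls were counts of a few interactions, so small differences could not be detected. Of 44 to 51 members tested, the numbers called were recomputed under each setting. Over the 12 tissue-stages, the 25 calls became 15 with edgeR and 10 with DESeq2, and 20 to 26 without a single library. For LV, the 26 calls became 15 without scaling, 17 with TMM, 15 with edgeR and 7 with DESeq2, and 12 to 28 without a library. For neural tissues, the 12 calls became 7 at an FDR below 0.1% and 0 with DESeq2 (4 members at an unadjusted p under 0.05), and 5 to 13 without a library. For late forebrain, the 9 calls became 19 without scaling, 4 with TMM, 4 without the filter, 3 with edgeR, 1 with DESeq2, 5 with only the bin of the 5′ end and 5 at an FDR below 0.1%, and 1 to 8 without a library. Without scaling, Rpl23a (0.0619), Rps24 (0.0694), Rpl37a (0.0629) and Rpl34 (0.33) changed sign in that comparison. With the replicate block, the calls were 25, 24, 11 and 9 in the 4 comparisons, though the numbers gave no sign of pairing. Over all genes, the 3330 calls across the 12 tissue-stages became 2202 with edgeR and 1391 with DESeq2. The 2449 for LV became 1950 without scaling, 2018 with TMM, 1448 with edgeR and 645 with DESeq2. The 1344 for neural tissues became 1171 at an FDR below 0.1% and 496 with DESeq2. The 1309 for late forebrain became 2811 without scaling, 1305 with TMM, 1500 without the filter, 896 with edgeR and 306 with DESeq2.

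The share of RP bins with contacts, 41.5 percentage points above all bins, became 34.1 with only 5′ end bins, 26.5 with interactions called in both replicates and 36.5 in the 24 replicate sets. The number in contacting bins, 1.51 above, became 0.504, 2.02 (single-gene bins), 0.795 (FDR below 0.1%), -0.574 (both replicates) and -0.0267 (24 sets). The number over all bins, 2.91 above, became 2.09, 3.42, 2.13, 0.629 and 1.31 under these settings. The distance, lower by 9.17 kb, became 10 kb higher in single-gene bins, and the difference was -27.1, -78.3 and -50.6 kb at the stricter FDR, with both replicates and in the 24 sets. The share of recurring interactions, 17.9% against 17.0% of all, became 19.9% against 17.1% in single-gene bins, 15.24% against 15.21% at the stricter FDR, and 16.8% against 17.8%, the other direction, with 5′ end bins. The share of bins with CTCF, 30.8 points above, became 34.4 with all peaks, 18.9 within 3 kb of a TSS, 27.2 with 5′ end bins, 33.6 without paralogs and 28.1 in single-gene bins. The 24 replicate sets, and single-gene bins for CTCF, were chosen after seeing the data. The causes were not tested.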
